A study of Mus musculus with 2 samples.

Results

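Osteoblast progenitor and Adipocyte progenitor are 2 of the 7 classes that the authors gave to single stromal cells of mouse bone marrow, and the comparison here sets the summed counts of the first class against those of the second over all genes. The members were the cells that passed the authors' filter and carried either class name: 404 Osteoblast progenitor cells, 144 in Stroma1 and 260 in Stroma2, and 463 Adipocyte progenitor cells, 165 in Stroma1 and 298 in Stroma2. Together they were 867 of the 2847 passing cells and of the 15028 barcodes in the deposited table. Both samples were marrow from mice of the strain labelled C56BL/6 aged 8 to 16 weeks, with no treatment, transgene or mutation named in the labels. Marrow was freed from crushed femurs, tibiae and pelvic bones, the fragments were digested with collagenase and dispase, and cells negative for CD45, Ter119 and CD31, surface proteins of white blood, red blood and endothelial cells, were sorted and captured in inDrops droplets. Stroma1 was read as 2 libraries and Stroma2 as 3. No label ties Stroma1 and Stroma2 to separate or pooled animals, so a p-value below covers only the spread of the class difference over these samples, which may be technical.

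Stromal cells that express the leptin receptor line the sinusoids of the marrow, hold blood stem cells there through Cxcl12 and Kit ligand, and give rise to both osteoblasts, which lay down and mineralize bone matrix, and marrow adipocytes. In osteoblast formation Runx2 acts before Sp7 (osterix), and matrix genes such as Alpl and Col1a1 follow, with osteocalcin late. In adipocyte formation C/EBP-beta and C/EBP-delta act early and switch on Pparg and C/EBP-alpha, which maintain the lipid genes. Immediate-early genes, such as Fos, Egr1 and Nr4a1, are switched on within minutes of many stimuli without new protein synthesis, and their products control later genes.

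The summed counts were 238611 and 389037 for Osteoblast progenitors of Stroma1 and Stroma2, against 319639 and 475368 for Adipocyte progenitors, and pairs of values below keep that order of samples. Medians were 1513.5 and 1199 counts per Osteoblast progenitor cell and 1882 and 1449.5 per Adipocyte progenitor cell. Mitochondrial counts took a median of 7.30% and 6.75% in Osteoblast progenitors, against 3.87% and 3.75% in Adipocyte progenitors, and their part in the other differences was not tested. Among passing cells, 499 carried a barcode found in more than 1 library of their sample, 49 of them Osteoblast progenitors and 71 Adipocyte progenitors. These barcodes numbered 235, and 203 of them had the same class in every copy. With each barcode taken once per sample, 810 cells of both classes gave 175 genes higher and 359 lower, close to the counts below. Counting is not stated to use strand, and exons of 24 of the 112 genes chosen by rule overlap another gene of the table, among them Runx2 (Runx2os1), Pth1r (Myl3), Cebpb (Tmem189), Cebpd (Spidr), Cxcl10 (Art3), Fn1 (Apol7d), Ctnnb1 (Ulk4) and Slc20a2 (Smim19). Reads of such pairs cannot be told apart.

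Of 5729 genes with enough counts to test, 176 were higher in Osteoblast progenitors than in Adipocyte progenitors and 373 were lower (edgeR's quasi-likelihood test with sample as a block, adjusted p under 0.05). That is 3.07% and 6.51% of the genes tested, 9.58% in all, and these are the shares against which the counts of each gene group are to be read. All 176 and all 373 had the same direction in both samples. The difference passed 2-fold for 94 of the higher genes and 260 of the lower ones, and 8-fold for 12 and 27. The median log2 fold change over all genes tested was 0.01. The authors' classes were made from these same counts, so a gene that helped to set the classes apart had to differ, and no test here is independent of how the classes were made. Fewer genes were called by DESeq2, with 45 higher and 147 lower, and with every cell thinned to 500 counts, with 52 higher and 149 lower.

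**Figure D1:**
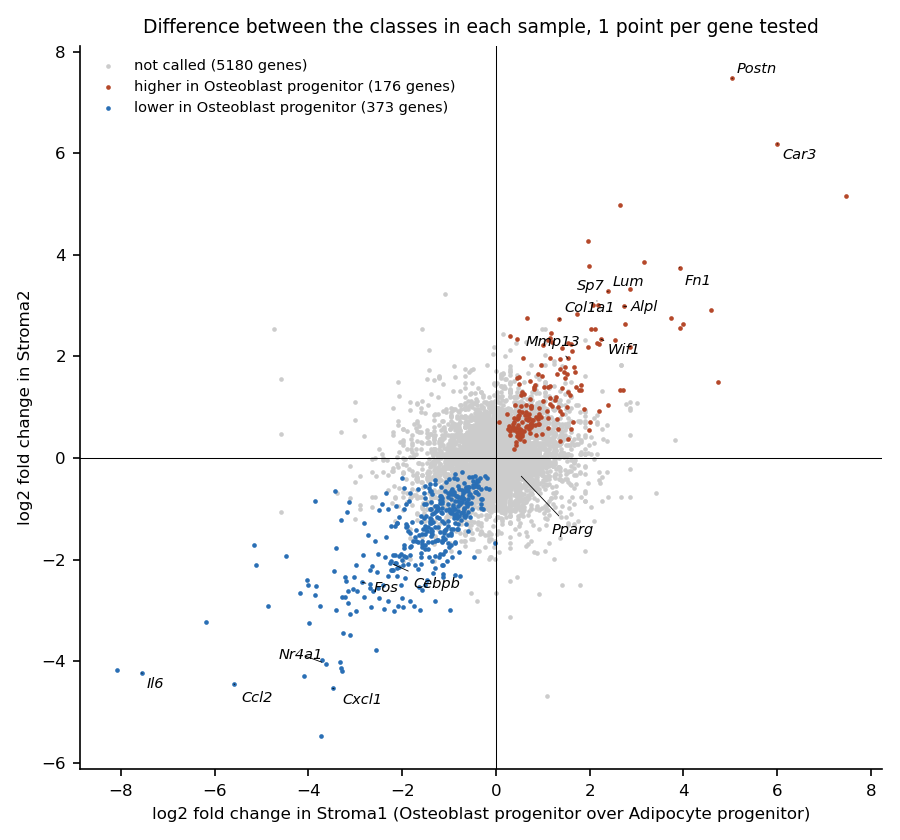
Log2 fold change of Osteoblast progenitors over Adipocyte progenitors in Stroma1 (x axis) and Stroma2 (y axis), 1 point per gene tested, with the 176 higher genes in red, the 373 lower ones in blue and the rest in grey. The called genes lie in the upper right and lower left, and Pparg lies among the grey points.

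The class names were set against markers. Osteocalcin, the late osteoblast gene Bglap, had 21.0 and 10.3 CPM (counts scaled by the raw total of a class in a sample) in Osteoblast progenitors, was at 0 in Adipocyte progenitors, and had 5549 and 3719 CPM in Pro-osteoblasts, another of the authors' classes. The 11 osteoblast markers summed to 4786 and 6585 CPM in Osteoblast progenitors, against 5450 and 4672 CPM in Adipocyte progenitors, lower in Stroma1 and higher in Stroma2. Ibsp and Col1a1, given below, were the largest parts of the sums in both classes. Of 5 tested, 3 were higher, Alpl, Col1a1 and Sp7, and 2 lower, Ibsp and Phex. Pro-osteoblasts stood far above both classes at 213211 and 211535 CPM. The 10 adipocyte markers summed to 1702 and 1337 CPM in Osteoblast progenitors, against 2084 and 2179 CPM in Adipocyte progenitors. Of 4 tested, 1 was higher, Car3, and 2 lower, Adipoq and Fabp4. Most Car3 counts of Osteoblast progenitors lay in few cells, as given below. Among the 10 markers, Cidec and Lep were at 0 in both classes and Cfd was at 0 in Adipocyte progenitors. Plin1, which coats the lipid droplet, had 12.6 and 0 CPM in Osteoblast progenitors and 0 and 8.41 CPM in Adipocyte progenitors. All 12 markers of leptin receptor stroma were detected in both classes, and they summed to 65081 and 56406 CPM in Osteoblast progenitors, against 80707 and 80885 CPM in Adipocyte progenitors. Among cells the sort should remove, the 20 blood cell markers summed to 92.2 and 470.4 CPM in Osteoblast progenitors and to 128 and 126 CPM in Adipocyte progenitors; S100a8, a neutrophil gene, gave 136 CPM in Osteoblast progenitors of Stroma2. Without the few cells whose blood and red cell markers passed 1% of counts, 186 genes were higher and 369 lower. The 14 endothelial markers summed to 189 and 134 CPM in Osteoblast progenitors and to 200.2 and 322 CPM in Adipocyte progenitors, and Cdh5, which defines endothelial junctions, was at 0 and 0 against 0 and 2.10 CPM. The 12 smooth muscle and pericyte markers summed to 1467 and 1074 CPM against 741 and 957 CPM, with Abcc9, a potassium channel subunit of pericytes, at 239 and 190 CPM in Osteoblast progenitors and 59.4 and 90.5 CPM in Adipocyte progenitors (adjusted p = 2.79e-05, edgeR). The part of these cells in the results was not tested.

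Among osteogenic transcription factors, Sp7 and Runx2 were higher in Osteoblast progenitors and Atf4 and Runx1 lower, out of 13 tested, with a median log2 fold change of 0.37. Sp7, the osterix factor that commits cells to the osteoblast fate, had 205 and 211 CPM in Osteoblast progenitors, against 40.7 and 23.1 CPM in Adipocyte progenitors (log2 fold change 2.66 ± 0.34 SE, adjusted p = 1.58e-13, edgeR). Runx2, the master regulator that acts before it, had 289 and 401 CPM in Osteoblast progenitors and 194 and 217 CPM in Adipocyte progenitors (0.65 ± 0.20, adjusted p = 0.0138), a difference that DESeq2 and the thinned cells did not call. The classes did not overlap for either factor, and the difference of Sp7 was the wider. Atf4, a stress-responsive factor that also serves late osteoblasts, had 197 and 265 CPM in Osteoblast progenitors and 429 and 496 CPM in Adipocyte progenitors. Runx1 had 453 and 434 CPM in Osteoblast progenitors against 670 and 574 CPM in Adipocyte progenitors, which DESeq2 and the thinned cells did not call. The other 9 factors did not pass; Dlx5, a homeobox activator of osteoblast genes, had a log2 fold change of 0.37 and Mef2c 1.38.

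Of 18 tested genes of bone matrix and mineralization 8 were higher and 2 lower, with a median log2 fold change of 0.37. Alpl (chromosome 4, 137741733 to 137796384, minus strand), the alkaline phosphatase that frees phosphate for mineral, had 1060 and 1031 CPM in Osteoblast progenitors, against 147 and 120 CPM in Adipocyte progenitors (log2 fold change 2.88 ± 0.17 SE, adjusted p = 7.24e-58, edgeR). Postn, the matricellular protein periostin of bone surfaces and periosteum, had 268 and 260 CPM in Osteoblast progenitors and 6.26 and 0 CPM in Adipocyte progenitors. Those are 165 counts against 2, a ratio of 97.2 with a 95% counting interval of 26.5 to 809. Omd, the bone proteoglycan osteomodulin, had 226 and 301 CPM in Osteoblast progenitors and 12.5 and 46.3 CPM in Adipocyte progenitors (2.98 ± 0.32, adjusted p = 3.96e-19). Col1a1, the main chain of bone collagen, was the least even of these: 1132 and 3249 CPM in Osteoblast progenitors against 410 and 454 CPM in Adipocyte progenitors (2.16 ± 0.13, adjusted p = 7.37e-54). Its log2 fold change was 1.35 in Stroma1 and 2.73 in Stroma2, and 10 of the 404 Osteoblast progenitor cells held 61.1% of its counts in the class. In Pro-osteoblasts Col1a1 had 201263 and 202082 CPM, and the share of Pro-osteoblasts among passing cells was 4.43% in Stroma1 and 16.1% in Stroma2. The part of free RNA or mixed droplets in the Osteoblast progenitor value was not tested. Tnc, the adhesive matrix protein tenascin-C, had 7435 and 8148 CPM in Osteoblast progenitors against 3454 and 3486 CPM in Adipocyte progenitors, and Spp1, osteopontin, 3856 and 5927 CPM against 2281 and 2686 CPM (adjusted p = 3.39e-25 and 8.22e-15, edgeR). Spp1 had 74070 and 78255 CPM in Pre-osteoblast/chondrocyte cells, another of the authors' classes. The part of free RNA or mixed droplets in its Osteoblast progenitor value was not tested either.

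Pth1r, the receptor through which parathyroid hormone acts on osteoblast lineage cells, had 231 and 229 CPM in Osteoblast progenitors and 100.1 and 111 CPM in Adipocyte progenitors (adjusted p = 0.00129, edgeR), a difference that DESeq2 and the thinned cells did not call. Both lower members of the group are mineralization genes. Ibsp, bone sialoprotein, had 2301 and 2026 CPM in Osteoblast progenitors against 4749 and 4012 CPM in Adipocyte progenitors (-1.12 ± 0.10, adjusted p = 2.08e-24), and MSC, the most numerous class, stood higher still at 5629 and 5962 CPM. Phex, a phosphate-regulating endopeptidase, had 37.7 and 23.1 CPM in Osteoblast progenitors and 93.9 and 54.7 CPM in Adipocyte progenitors. Cdh11, osteoblast cadherin, did not pass, with 1136 and 1069 CPM in Osteoblast progenitors and 829 and 789 CPM in Adipocyte progenitors (adjusted p = 0.0801).

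**Figure D2:**
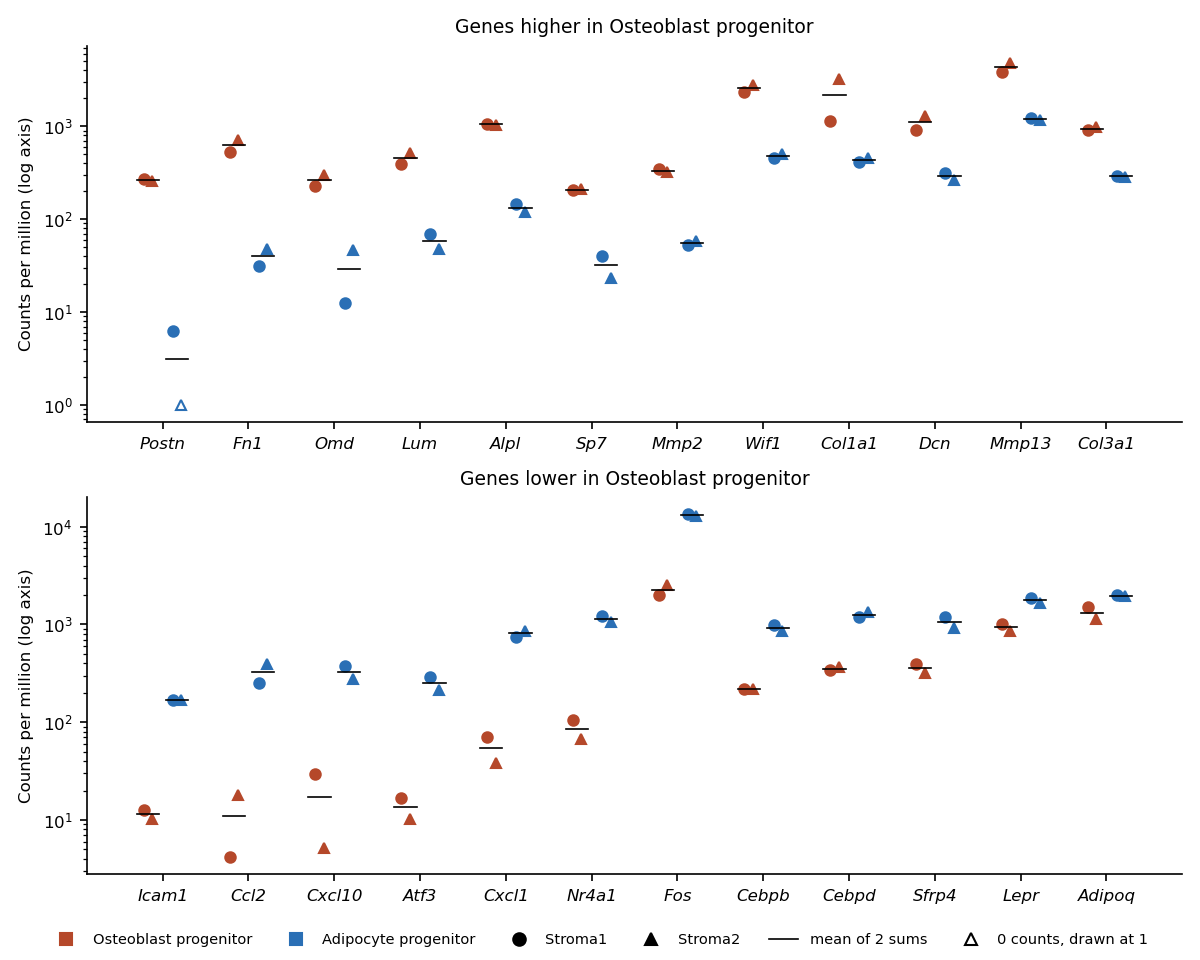
CPM on a log axis for 12 genes higher (top) and 12 lower (bottom) in Osteoblast progenitors, with Osteoblast progenitors in red left of Adipocyte progenitors in blue, circles for Stroma1, triangles for Stroma2, open symbols for 0 counts, drawn at 1, and a line at the mean of the 2 sums. All genes drawn were picked from those called, so the lack of overlap between the classes is no separate result. Col1a1 shows the gap between the 2 Osteoblast progenitor sums, 1132 and 3249 CPM.

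The wider matrix was mixed. Of 15 collagen and fibril genes tested, 6 were higher and 2 lower, with a median log2 fold change of 0.02. Fn1, fibronectin, on which other matrix proteins assemble, had 532 and 717 CPM in Osteoblast progenitors, against 31.3 and 48.4 CPM in Adipocyte progenitors (3.84 ± 0.24 SE, adjusted p = 3.96e-54, edgeR). Col3a1, a fibril collagen of soft tissues, had 901 and 974 CPM in Osteoblast progenitors and 291 and 286 CPM in Adipocyte progenitors, and Col8a1, a short-chain collagen, 1484 and 1560 CPM against 726 and 799 CPM. Col11a1, a minor fibril collagen of cartilage and bone, had 54.5 and 56.5 CPM against 18.8 and 14.7 CPM. It lost its call without the filter on low counts and with classes rebuilt from part of the counts. Pro-osteoblasts had 3012 and 3925 CPM of Col11a1, and the part of free RNA or mixed droplets was not tested. The lower pair were Col4a1, a basement membrane collagen (log2 fold change -0.56), and Lox, which cross-links collagen (-0.52). The 29 genes of collagen modification and secretion gave no call in either direction, 0 at an adjusted p under 0.05 in edgeR, with a median of 0.17.

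Small leucine-rich proteoglycans, which bind collagen fibrils, split within their own family. Lum, lumican, had 394 and 517 CPM in Osteoblast progenitors and 68.8 and 48.4 CPM in Adipocyte progenitors (log2 fold change 2.91 ± 0.24 SE, adjusted p = 2.3e-30, edgeR). Dcn, decorin, had 914 and 1290 CPM against 316 and 267 CPM, and Fmod, fibromodulin, 176 and 123 CPM against 34.4 and 23.1 CPM. In Pro-osteoblasts Lum had 1693 and 1541 CPM, Dcn 4198 and 5364 CPM, and Fmod 134 and 27.6 CPM. Of the Lum counts in Osteoblast progenitors, 10 of the 404 cells held 49.8%. The part of free RNA or mixed droplets in the Lum and Dcn values was not tested. Prelp, of the same family, ran the other way, with 159 and 43.7 CPM in Osteoblast progenitors and 457 and 334 CPM in Adipocyte progenitors (-2.22 ± 0.23, adjusted p = 1.26e-19), while Bgn, biglycan, did not pass at a log2 fold change of -0.15. With the matricellular proteins the list had 3 higher and 4 lower of 14 tested. Mgp, matrix Gla protein, an inhibitor of calcification, had 670.5 and 558 CPM in Osteoblast progenitors and 1520 and 1626 CPM in Adipocyte progenitors, and Cyr61 and Thbs1 were also lower, with log2 fold changes of -1.35 and -0.98.

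Of 25 proteases and protease inhibitors tested 5 were higher in Osteoblast progenitors and 6 lower, with a median of 0.12. The 5 higher genes were Mmp2, Mmp13, Adamts5, Mmp14 and Fap. Mmp2, a gelatinase, had 344 and 321 CPM in Osteoblast progenitors, against 53.2 and 58.9 CPM in Adipocyte progenitors (log2 fold change 2.44 ± 0.26 SE, adjusted p = 1.77e-18, edgeR). Mmp13 (chromosome 9, 7272514 to 7283331, plus strand), the collagenase of bone and cartilage remodelling, had 3805 and 4840 CPM in Osteoblast progenitors and 1214 and 1159 CPM in Adipocyte progenitors (1.76 ± 0.11, adjusted p = 2.77e-53). In Pre-osteoblast/chondrocyte cells Mmp13 had 22819 and 22911 CPM. The part of free RNA or mixed droplets in its Osteoblast progenitor value was not tested. Mmp14, the membrane protease that activates pro-Mmp2, had 235 and 391 CPM against 144 and 151 CPM. Among lower genes, Adamts1, an aggrecan-cutting protease, had 142 and 180 CPM in Osteoblast progenitors and 763 and 1001 CPM in Adipocyte progenitors (-2.56 ± 0.18, adjusted p = 7.77e-45), and Adamts4 12.6 and 20.6 CPM against 56.3 and 75.7 CPM, a call that DESeq2 and the rebuilt classes did not make.

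The Mmp13 promoter is printed because Runx2 and AP-1, the dimer of Fos and Jun proteins, are known to drive this gene in osteoblasts. Of their genes, Runx2 was higher here and Fos, given below, lower. It is the RefSeq window of GRCm38.p6, chr9:7272264-7272563, plus strand, from 250 bases before the start of the gene to 50 bases after, with motifs in capitals.
Mmp13: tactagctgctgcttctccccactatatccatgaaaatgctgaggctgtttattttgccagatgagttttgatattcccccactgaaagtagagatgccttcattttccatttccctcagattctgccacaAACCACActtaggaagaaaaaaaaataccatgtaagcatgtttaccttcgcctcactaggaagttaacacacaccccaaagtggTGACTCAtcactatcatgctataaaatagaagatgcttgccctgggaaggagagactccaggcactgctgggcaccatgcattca
The capitals mark TGTGGTT, the Runx motif, read on the other strand and beginning 119 bases before the start, and TGACTCA, the AP-1 motif, beginning 35 bases before it. Both strands were searched and the motifs share no bases. Among the 4481 tested genes with a promoter in the table, 3.97% held that Runx motif and 4.35% that AP-1 motif. Among list members the Runx motif was in 1 of 14 bone matrix promoters, that of Spp1, and in 2 of 9 osteogenic factor promoters, those of Runx2 and Runx1. It was also in 2 of 14 promoters of chemokines and cytokines, a list given below with more lower than higher genes. A match describes letters and is not evidence of binding.

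Wnt signals favour bone formation, and secreted inhibitors of the pathway limit it. Of 21 pathway genes tested, 4 were higher and 1 lower, with a median log2 fold change of -0.14. Wif1 (chromosome 10, 121033960 to 121100650, plus strand), a secreted inhibitor that binds Wnt proteins, had 2355 and 2771 CPM in Osteoblast progenitors, against 460 and 509 CPM in Adipocyte progenitors and 282 and 285 CPM in MSC (log2 fold change of Osteoblast over Adipocyte progenitors 2.30 ± 0.13 SE, adjusted p = 5.23e-68, edgeR). Sfrp4, another secreted inhibitor, had 394 and 319 CPM in Osteoblast progenitors and 1189 and 926 CPM in Adipocyte progenitors (-1.67 ± 0.15, adjusted p = 9.11e-27), with MSC at 1678 and 1538 CPM. Lrp4, a co-receptor for the inhibitors sclerostin and Dkk1, had 101 and 147 CPM in Osteoblast progenitors and 31.3 and 27.3 CPM in Adipocyte progenitors. Ctnnb1, beta-catenin, had 699.9 and 753 CPM against 409.8 and 389 CPM. Wls, which carries Wnt proteins to the cell surface, had 272 and 272 CPM against 172 and 135 CPM (adjusted p = 0.0117). DESeq2 did not call Lrp4 or Ctnnb1. Sfrp1, Rspo3 and Dkk3 did not pass, with log2 fold changes of 0.12, 0.64 and 1.08.

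In the BMP and TGF-beta pathway 3 of 32 genes were higher and 6 lower, with a median of -0.20. The higher members were Tgfbi, a matrix protein induced by TGF-beta, Gdf10, a ligand of the family, and Smad6, an inhibitor inside the cell. Gdf10 had 130 and 165 CPM in Osteoblast progenitors and 59.4 and 31.6 CPM in Adipocyte progenitors (log2 fold change 1.68 ± 0.33 SE, adjusted p = 1.2e-05, edgeR), and Smad6 had 205 and 200.5 CPM against 62.6 and 77.8 CPM; DESeq2 called none of the 3 and the rebuilt classes called neither Gdf10 nor Smad6. Tgfbi had a log2 fold change of 1.78, with 0.67 in Stroma1 alone and 2.76 in Stroma2 alone, and without Stroma2 that of Gdf10 was 1.001. Among the lower members, Grem1, a secreted BMP antagonist, had 398 and 298 CPM in Osteoblast progenitors and 638 and 618 CPM in Adipocyte progenitors (-0.98 ± 0.16, adjusted p = 3.71e-08). Chrdl1, another antagonist, had 633 and 422 CPM against 1148 and 1285 CPM, and Id2, a target that blocks helix-loop-helix factors, 205 and 229 CPM against 479 and 456 CPM. Bmp2, a bone-inducing ligand, was low throughout, with 8.38 and 20.6 CPM in Osteoblast progenitors and 62.6 and 48.4 CPM in Adipocyte progenitors (adjusted p = 0.013), and with the rebuilt classes its difference reversed, to a log2 fold change of 2.16.

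Notch, Hedgehog and growth factor genes were tested as 3 lists. Of 10 Notch genes only Hes1, the target repressor, was called, with 218 and 236 CPM in Osteoblast progenitors and 554 and 768 CPM in Adipocyte progenitors (log2 fold change -1.66 ± 0.17 SE, adjusted p = 1.02e-19, edgeR); Hey1, also a target, had 0.51 and did not pass. Of 5 Hedgehog genes only Gas1, a co-receptor, was called, with 482 and 506 CPM against 238 and 276 CPM, and not by DESeq2 or in thinned cells. Of 17 IGF, FGF and PDGF genes, 2 were higher and 7 lower. Fgfr3 had 222 and 177 CPM in Osteoblast progenitors and 50.1 and 101 CPM in Adipocyte progenitors, and was not called by DESeq2 or in thinned cells; its log2 fold change was 2.01 in Stroma1 alone and 0.70 in Stroma2 alone. Igfbp5, which binds IGFs, had 5431 and 5089 CPM in Osteoblast progenitors and 11347 and 9856 CPM in Adipocyte progenitors (adjusted p = 8.57e-30), while Igfbp4 was higher, with 14819 and 12284 CPM against 10565 and 10064 CPM. Igf2 had 75.4 and 69.4 CPM against 128 and 206 CPM and was not called by DESeq2 or with the rebuilt classes, with a log2 fold change of -0.86 without Stroma2, and Igfbp3, with 105 and 126 CPM against 297 and 261 CPM, was not called in thinned cells. Igf1 did not pass, at 545 and 560 CPM against 363 and 406 CPM (adjusted p = 0.0883), and Pdgfra, at 323 and 324 CPM against 422 and 452 CPM, was called by edgeR but not by DESeq2 or in thinned cells.

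Adhesion and guidance genes gave 4 higher and 3 lower of 18. Limch1, an actin-binding protein, had 1044 and 1067 CPM in Osteoblast progenitors and 300.3 and 305 CPM in Adipocyte progenitors (log2 fold change 1.70 ± 0.15 SE, adjusted p = 5.42e-27, edgeR). Ncam1, a neural cell adhesion molecule, had 251.5 and 404 CPM against 93.9 and 118 CPM, and Slit2, a secreted guidance cue, 96.4 and 131 CPM against 28.2 and 27.3 CPM, without a DESeq2 call. Icam1, an adhesion molecule for leukocytes, had 12.6 and 10.3 CPM in Osteoblast progenitors and 169 and 170.4 CPM in Adipocyte progenitors (-3.99 ± 0.44, adjusted p = 7.87e-18). Of 13 hormone and adrenergic receptor genes, Pth1r was higher and Lepr and Ramp2 lower. Ramp2, at 16.8 and 12.9 CPM against 43.8 and 50.5 CPM, is also an endothelial marker and shares a strand with an overlapping gene, Vps25; its call was lost without the blood-marker cells. Of 3 cartilage genes with enough counts, Col11a1 was higher, and Sox9, the cartilage master factor, had 41.9 and 69.4 CPM in Osteoblast progenitors and 81.3 and 111 CPM in Adipocyte progenitors without passing (adjusted p = 0.0986).

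Among adipogenic transcription factors the early factors C/EBP-beta and C/EBP-delta were lower in Osteoblast progenitors, while Pparg and C/EBP-alpha were not called, and in all 0 of 17 were higher and 3 lower, with a median log2 fold change of -0.22. Cebpb had 218 and 218 CPM in Osteoblast progenitors and 976 and 854 CPM in Adipocyte progenitors (-2.16 ± 0.16 SE, adjusted p = 2.87e-36, edgeR). Cebpd had 339 and 365 CPM against 1186 and 1325 CPM (-1.94 ± 0.15, adjusted p = 1.89e-37). Both are also rapid-response genes in many cells. Pparg had 71.2 and 56.5 CPM in Osteoblast progenitors and 46.9 and 65.2 CPM in Adipocyte progenitors, so the classes overlapped (0.03 ± 0.40, adjusted p = 0.985). Cebpa overlapped likewise, at 612 and 460.1 CPM against 447 and 482 CPM (adjusted p = 0.895). With the rebuilt classes both reversed, Pparg at -4.06 and Cebpa at -1.24. Of the 237 cells then on the osteoblast side, 128 were Osteoblast progenitors and 79 were Pre-osteoblast/chondrocyte cells. The latter class had 0 CPM of Pparg and 18.1 and 25.1 CPM of Cebpa, and its part in the reversals was not tested. Ebf3, which keeps marrow stroma from turning to bone, had 893 and 761 CPM in Osteoblast progenitors and 1320 and 1422 CPM in Adipocyte progenitors (-0.85 ± 0.13, adjusted p = 1.13e-09). Its relative Ebf1 (528 and 632 CPM against 619 and 684 CPM) and Foxc1, a niche factor (763 and 591 CPM against 657 and 713 CPM), did not pass.

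Lipid and adipocyte genes were lower where called, 7 of 12 with 0 higher, and the median was -0.52. The 26 genes of the list summed to 14094 and 11554 CPM in Osteoblast progenitors and 17548 and 17134 CPM in Adipocyte progenitors. In MSC the sums were 19484 and 18747 CPM, so the level in Adipocyte progenitors was not above that of MSC. Adipoq, adiponectin, had 1492 and 1136 CPM in Osteoblast progenitors and 1989.7 and 1952 CPM in Adipocyte progenitors (log2 fold change -0.71 ± 0.12 SE, adjusted p = 4.05e-08, edgeR). Hp, haptoglobin, had 2791 and 2401 CPM against 4743 and 4521 CPM. Lpl, lipoprotein lipase, differed little, at 3638 and 2707 CPM against 4183 and 3829 CPM (-0.46 ± 0.10). Fabp4, a fatty acid carrier of adipocytes and endothelium, had 21.0 and 28.3 CPM in Osteoblast progenitors and 43.8 and 139 CPM in Adipocyte progenitors, with log2 fold changes of -1.12 in Stroma1 and -2.34 in Stroma2. Angptl4, Mgst1 and Apoe were the other lower members, and the log2 fold change of Angptl4 was -0.76, or -0.50 without Stroma2. DESeq2 did not call Lpl, Fabp4 or Angptl4, thinned cells did not call Adipoq or Lpl, and the lipid synthesis genes Fasn, Scd1 and Plin2 did not pass, with log2 fold changes of 0.18, 0.26 and 0.55.

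Of 17 tested genes through which stroma supports blood cells, 9 were lower in Osteoblast progenitors, 1, Spp1, was higher and 7 were not called, with a median of -0.50. Lepr, the leptin receptor, had 1010 and 851 CPM in Osteoblast progenitors, against 1846 and 1670 CPM in Adipocyte progenitors and 1951 and 1918 CPM in MSC (log2 fold change of Osteoblast over Adipocyte progenitors -1.03 ± 0.12 SE, adjusted p = 3.19e-15, edgeR). Cxcl12, the chemokine that retains stem cells, had 48552 and 42723 CPM in Osteoblast progenitors and 58707 and 59579 CPM in Adipocyte progenitors (-0.48 ± 0.08, adjusted p = 3.62e-08), and was not called in thinned cells. Kitl, stem cell factor, had 838 and 715 CPM against 1314 and 1224 CPM. Vcam1, Csf1 and Angpt1 were lower with log2 fold changes of -0.79, -0.60 and -0.93, and DESeq2 did not call Csf1. The wider differences were those of Fgf7, an epithelial growth factor (58.7 and 66.8 CPM in Osteoblast progenitors, 216 and 217 CPM in Adipocyte progenitors), Il34, a ligand of the macrophage receptor Csf1r (155 and 121 CPM against 435 and 417 CPM), and Esm1, endocan (507 and 347 CPM against 945 and 1100.2 CPM). Il7, the lymphocyte cytokine, did not pass, at 71.2 and 77.1 CPM against 113 and 86.2 CPM (adjusted p = 0.473). In each of the 9 lower genes both Osteoblast progenitor sums lay below both Adipocyte progenitor sums. These 9 were picked as called, and the share of all genes tested with such a gap was not counted. Nothing particular to these genes is read from it.

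**Figure D3:**
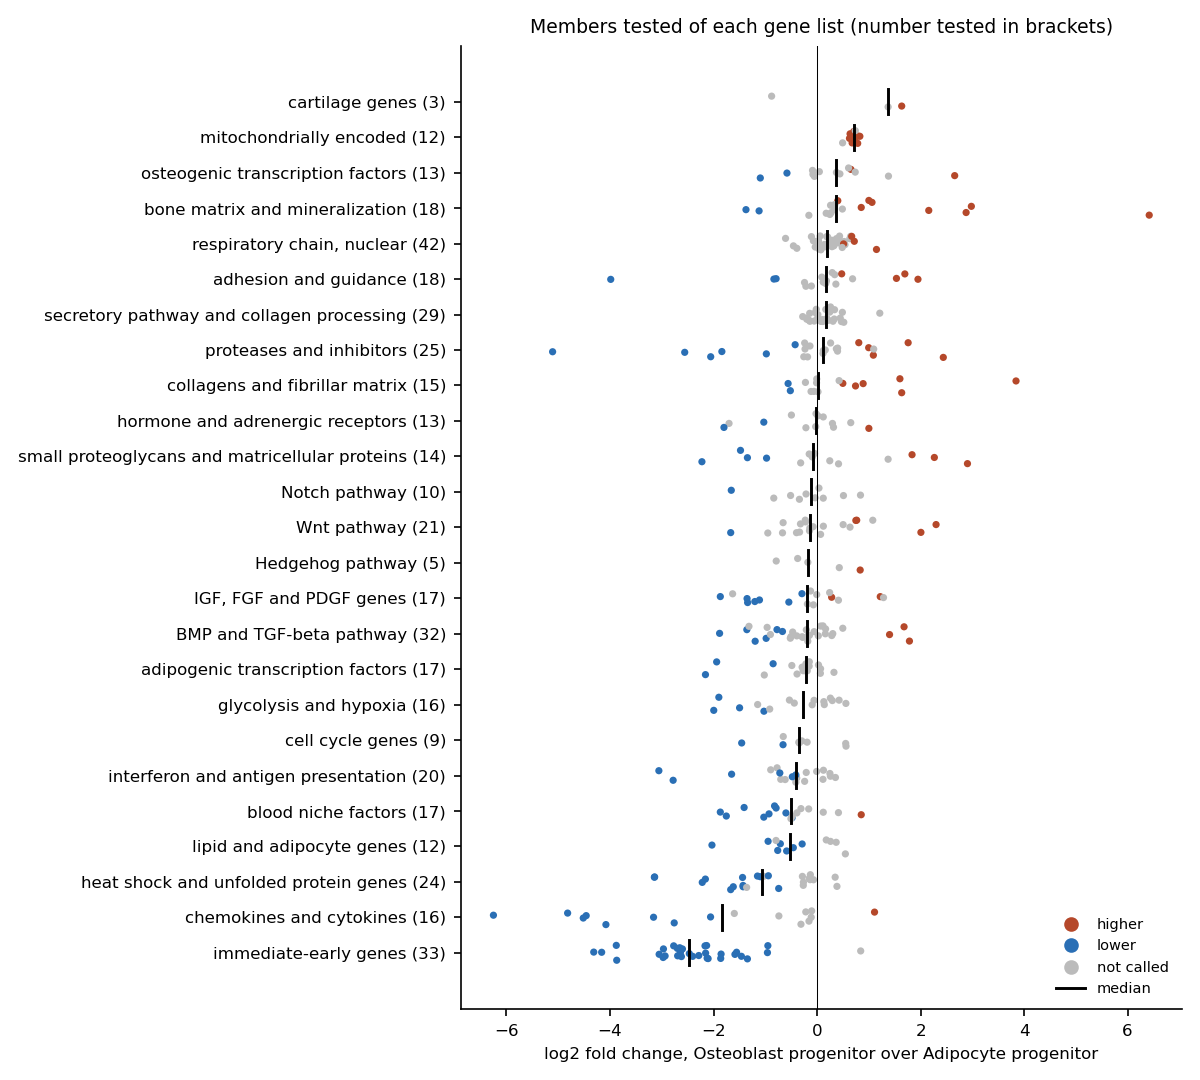
Log2 fold change of Osteoblast progenitors over Adipocyte progenitors (x axis) for every tested member of the 25 gene lists (rows, ordered by median), with higher members in red, lower ones in blue, members not called in grey, and the median as a black line. Immediate-early genes, chemokines and cytokines, and heat shock genes have the lowest medians, -2.47, -1.83 and -1.06, against 0.01 over all genes tested.

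Immediate-early genes had the largest share of called members among the 25 lists. Of 33 tested, 32 were lower in Osteoblast progenitors and 0 higher, against 6.51% lower among all genes tested, with a median log2 fold change of -2.47. Fos (chromosome 12, 85473890 to 85477273, plus strand), a subunit of AP-1, had 1995 and 2527 CPM in Osteoblast progenitors, against 13321 and 12866 CPM in Adipocyte progenitors and 2483 and 2670 CPM in MSC (log2 fold change of Osteoblast over Adipocyte progenitors -2.64 ± 0.10 SE, adjusted p = 3.46e-140, edgeR). Nr4a1, an orphan nuclear receptor, had 105 and 66.8 CPM in Osteoblast progenitors and 1217 and 1054 CPM in Adipocyte progenitors (-3.87 ± 0.19, adjusted p = 3.66e-85). Atf3, a stress-induced repressor, had 16.8 and 10.3 CPM against 288 and 215 CPM. Maff, a small Maf protein, had 16.8 and 7.71 CPM against 163 and 156 CPM, and Nr4a3 had 2 counts in Osteoblast progenitors and 47 in Adipocyte progenitors (ratio of Adipocyte over Osteoblast progenitors 19.9, 95% counting interval 5.22 to 170). Egr1, a zinc finger activator, had 570.0 and 799 CPM against 4305 and 3814 CPM, and Zfp36, which destabilizes cytokine messages, 377 and 583 CPM against 3426 and 3643 CPM. In each of these genes MSC lay near Osteoblast progenitors; Zfp36, for example, had 462 and 647 CPM there. Srf, the factor that switches many of these genes on, was the 1 member not called, at 58.7 and 108 CPM in Osteoblast progenitors and 56.3 and 35.8 CPM in Adipocyte progenitors.

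The difference was also described cell by cell. Classes were made from these same counts, so the split of cells below is no separate support for it. Immediate-early genes took a median of 0.402% and 0.650% of the counts of an Osteoblast progenitor cell, against 5.06% and 5.16% in an Adipocyte progenitor cell, 0.769% and 0.711% in MSC, and 8.90% and 8.16% in Pre-adipocytes. In Stroma1, 0 of 144 Osteoblast progenitor cells reached the Adipocyte progenitor median, and in Stroma2 3 of 260 did. Not 1 Adipocyte progenitor cell of either sample, 0 of 165 and 0 of 298, lay below the Osteoblast progenitor median of its sample. The share of cells with a Fos count after thinning to 500 counts was 28.5% and 38.5% in Osteoblast progenitors and 94.5% and 96.0% in Adipocyte progenitors. Adipocyte progenitor cells also had more counts per cell and a lower mitochondrial share, as given above, and the part of either in this difference was not tested. All values are of cells after the digestion and sort given above, and levels in intact marrow were not measured.

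**Figure D4:**
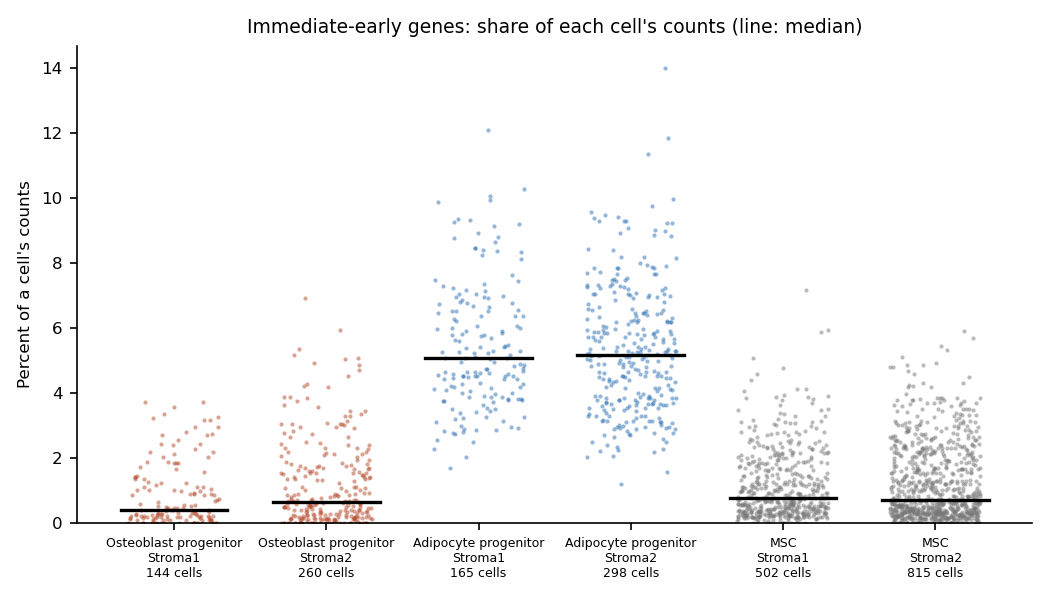
Share of each cell's counts in immediate-early genes (y axis, percent), 1 point per cell, for Osteoblast progenitors, Adipocyte progenitors and MSC in each sample, with a black line at the median. Osteoblast progenitors have medians of 0.402% and 0.650%, Adipocyte progenitors 5.06% and 5.16%, and MSC 0.769% and 0.711%.

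Promoters of 3 lower genes are shown because each holds a motif known from such inducible genes: the cAMP response element (CRE) in Maff, the CArG box bound by Srf in Zfp36, and AP-1 in Cxcl10, a chemokine described below. They are RefSeq windows of GRCm38.p6 of the same extent, for Maff chr15:79347270-79347569 on the plus strand, for Zfp36 chr7:28379179-28379478 on the minus strand and for Cxcl10 chr5:92348840-92349139 on the minus strand, each written along the gene's own strand with the motif in capitals.
Maff: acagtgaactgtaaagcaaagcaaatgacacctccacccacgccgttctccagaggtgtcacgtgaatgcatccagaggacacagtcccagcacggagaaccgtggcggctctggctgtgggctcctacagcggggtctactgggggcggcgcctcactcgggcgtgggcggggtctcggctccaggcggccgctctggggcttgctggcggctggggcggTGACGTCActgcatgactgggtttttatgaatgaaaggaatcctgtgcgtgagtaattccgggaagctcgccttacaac
Zfp36: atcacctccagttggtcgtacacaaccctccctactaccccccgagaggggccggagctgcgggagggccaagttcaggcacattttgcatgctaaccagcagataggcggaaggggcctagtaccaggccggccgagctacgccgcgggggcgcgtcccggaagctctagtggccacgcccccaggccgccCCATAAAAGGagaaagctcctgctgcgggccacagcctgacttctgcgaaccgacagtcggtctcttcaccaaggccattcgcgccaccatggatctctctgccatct
Cxcl10: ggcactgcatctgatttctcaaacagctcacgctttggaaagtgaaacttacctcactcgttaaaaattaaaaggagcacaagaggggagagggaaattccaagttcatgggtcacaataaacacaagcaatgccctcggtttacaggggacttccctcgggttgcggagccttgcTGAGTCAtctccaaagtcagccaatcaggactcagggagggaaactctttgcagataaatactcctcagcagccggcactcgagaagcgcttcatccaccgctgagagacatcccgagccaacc
In Maff the capitals are TGACGTCA, 29 bases before the start and in 1 of its 3 start windows; in Zfp36 they are the CArG box, 58 bases before; in Cxcl10 they are TGACTCA read on the other strand, 74 bases before. Of the 29 tested immediate-early genes with a promoter in the table, 4 held the CRE (13.8%, against 3.53% of the 4481 tested genes) and 3 a CArG box (10.3%, against 1.76%), and 0 held the AP-1 or Runx motif in this window. Of 14 chemokine and cytokine promoters, 6 held AP-1 (42.9%, against 4.35%), among them Il6, Cxcl9, Cxcl10 and Tnfaip3. These shares are counts of letters in windows, and they say nothing of which factor acted.

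Chemokines and cytokines were lower in 8 of 16 tested and higher in 1, with a median of -1.83. Il6, the inflammatory cytokine, had 0 and 2.57 CPM in Osteoblast progenitors, a single count, and 253 and 69.4 CPM in Adipocyte progenitors, 114 counts (ratio of Adipocyte over Osteoblast progenitors 96.8, 95% counting interval 17.0 to 3855). Ccl2, which draws monocytes, had 4.19 and 17.99 CPM in Osteoblast progenitors and 250.3 and 395 CPM in Adipocyte progenitors (log2 fold change -4.82 ± 0.37 SE, adjusted p = 6.92e-37, edgeR). Cxcl1, which draws neutrophils, had 71.2 and 38.6 CPM against 751 and 865 CPM (-4.08 ± 0.22, adjusted p = 1.14e-70). Cxcl10, an interferon-inducible chemokine, had 29.3 and 5.14 CPM against 379 and 273 CPM. Within Adipocyte progenitors Il6 was uneven between the samples. Ccl7 (2 counts in Osteoblast progenitors and 58 in Adipocyte progenitors), Tnfaip3, Ptgs2 and Cxcl9 were also lower. The 1 higher member was Lifr, the receptor of leukaemia inhibitory factor, at 717 and 707 CPM in Osteoblast progenitors and 375 and 255 CPM in Adipocyte progenitors (1.11 ± 0.16, adjusted p = 1.58e-10). Counts of these cytokines were found in a minority of cells: 40 of the 463 Adipocyte progenitor cells had an Il6 count and 164 a Cxcl1 count. At this depth a cell without a count may still express the gene.

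Chaperones fold new or damaged proteins and are induced by stress. Of 24 heat shock and unfolded protein genes 13 were lower and 0 higher, with a median of -1.06. The list took a median of 0.695% and 0.721% of a cell's counts in Osteoblast progenitors and 1.37% and 1.35% in Adipocyte progenitors. Pre-adipocytes stood higher, at 2.02% and 1.99%. Hspb1, a small heat shock protein, had 21.0 and 41.1 CPM in Osteoblast progenitors and 300.3 and 257 CPM in Adipocyte progenitors (log2 fold change -3.14 ± 0.31 SE, adjusted p = 7.52e-22, edgeR). Hspa8, the constitutive Hsc70, had 1333 and 1247 CPM against 3538 and 3803 CPM, and Hspa5, the chaperone BiP of the endoplasmic reticulum, 926 and 874 CPM against 2206 and 2318 CPM. Dnajb1, a co-chaperone, had 113 and 129 CPM against 488 and 559.6 CPM. Hspa1a and Hspa1b were lower too, with log2 fold changes of -3.14 and -2.16, but they are near-identical copies whose reads counting could divide, so each value is uncertain. The luminal chaperones Calr, Pdia3 and Hsp90b1 did not pass, with -0.27, -0.07 and -0.28.

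Of 20 interferon and antigen presentation genes 6 were lower and 0 higher. Irf1, the inducible factor, had 113 and 131 CPM in Osteoblast progenitors and 876 and 734 CPM in Adipocyte progenitors (log2 fold change -2.78 ± 0.19 SE, adjusted p = 8.25e-47, edgeR), and Ifitm1 4.19 and 12.9 CPM against 84.5 and 69.4 CPM. Isg15 and B2m did not pass, with -0.62 and -0.01. Gbp2 and Psmb8 were called by edgeR but not by DESeq2.

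The respiratory chain is encoded in part by mitochondrial DNA and in part by nuclear genes. Of 12 tested genes encoded in mitochondrial DNA, 10 were higher and 0 lower, against 3.07% higher among all genes tested, with log2 fold changes between 0.49 and 0.83. Mt-Cytb, a subunit of complex III, had 10125 and 8778 CPM in Osteoblast progenitors and 5003 and 5127 CPM in Adipocyte progenitors (mt-Cytb log2 fold change 0.79 ± 0.09 SE, adjusted p = 4.43e-15, edgeR). This is the difference in mitochondrial share of counts given above. Cell by cell, 90.3% and 88.5% of Osteoblast progenitor cells lay above the Adipocyte progenitor median, in classes made from these same counts. Of 42 nuclear genes of the respiratory chain 4 were higher, Ndufs6, Atp5k, Atp5j2 and Cox4i1, and 0 lower, with a median of 0.19; DESeq2 called none of the 4. Ndufs6 had 243 and 198 CPM against 125 and 67.3 CPM. Of 16 glycolysis and hypoxia genes 4 were lower and 0 higher. Vegfa, the vascular growth factor induced by low oxygen, had 88.0 and 87.4 CPM in Osteoblast progenitors and 344 and 313 CPM in Adipocyte progenitors (adjusted p = 1.4e-14). Hk2, the inducible hexokinase, had 50.3 and 48.8 CPM against 169 and 175 CPM, and Ldha, lactate dehydrogenase, 272 and 234 CPM against 463 and 484 CPM. Of 9 cell cycle genes, the inhibitor Cdkn1a was lower, at 159 and 147 CPM against 409.8 and 372 CPM, as was the histone H2afz, which DESeq2 and the thinned cells did not call.

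Several of the most different genes stood outside these lists. Postn, of the bone matrix list, is set beside them, and Car3 is also among the adipocyte markers above. Car3, a carbonic anhydrase, had 92.2 and 105 CPM in Osteoblast progenitors and 0 counts in Adipocyte progenitors, at least 24.7-fold higher against a floor of 3 counts over the class, yet 10 of the 404 cells held 73.0% of its counts and Pro-osteoblasts had 1837 and 2086 CPM. Cpe, carboxypeptidase E, had 256 and 293 CPM in Osteoblast progenitors and 0 and 6.31 CPM in Adipocyte progenitors, 175 counts against 3 (ratio 68.7, 95% counting interval 23.1 to 336), with Pro-osteoblasts at 1704 and 1574 CPM. The part of free RNA from that class in these values was not tested. Postn, with 268 and 260 CPM in Osteoblast progenitors, had 959.8 and 793 CPM in Pre-osteoblast/chondrocyte cells and 53.4 and 19.99 CPM in Pro-osteoblasts, and 10 of the 404 Osteoblast progenitor cells held 58.2% of its counts in the class. Slc20a2, a phosphate transporter, had 176 and 339 CPM in Osteoblast progenitors and 37.5 and 37.9 CPM in Adipocyte progenitors (log2 fold change 2.70 ± 0.31 SE, adjusted p = 1.37e-16, edgeR), and 0 and 6.20 CPM in Pro-osteoblasts. Mgll, monoglyceride lipase, had 57 counts against 3 and Ppfibp2 43 against 3. Vldlr (the receptor of very low density lipoprotein), Vcan (the proteoglycan versican), Wisp1 (a Wnt-inducible matricellular protein), Spata13 and Slc36a2 had log2 fold changes between 2.75 and 3.42; DESeq2 did not call Slc36a2. Vcan had 96.4 and 247 CPM in Osteoblast progenitors and 21.9 and 10.5 CPM in Adipocyte progenitors, and Spata13 71.2 and 175 CPM against 15.6 and 10.5 CPM. Among Osteoblast progenitors, 10 of the 404 cells held 65.5% of Vcan counts, and 10 held 45.0% of those of Omd, given above. In Stroma1 alone, without Stroma2, the log2 fold change of Vcan was 1.96, that of Spata13 1.99 and that of Mgll 2.65. At the other end, Cbln1, a secreted synaptic organizer, had 21.0 and 10.3 CPM in Osteoblast progenitors, 206 and 177 CPM in Adipocyte progenitors and 389 and 353 CPM in MSC. Pim1, a kinase induced by cytokines, had 37.7 and 51.4 CPM against 573 and 465 CPM, and Rgs16, a brake on G protein signals, 21.0 and 15.4 CPM against 197 and 170 CPM. Kcne4, a potassium channel subunit, had 4.19 and 7.71 CPM against 43.8 and 94.7 CPM, without a DESeq2 call.

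MSC levels were set beside both classes. For 153 of the 176 higher genes the MSC value lay nearer Adipocyte progenitors, and for 23 nearer Osteoblast progenitors. For the 373 lower genes it lay nearer Osteoblast progenitors in 175 and nearer Adipocyte progenitors in 198. Immediate-early genes and cytokines named above were high in Adipocyte progenitors beside both Osteoblast progenitors and MSC. These high levels were not particular to that class. In Pre-adipocytes Nr4a1 had 3410 and 3551 CPM, Ccl2 2520 and 1464 CPM, Cxcl1 2801 and 1998 CPM and Il6 618 and 404 CPM. Lepr, Kitl, Sfrp4, Cbln1 and Ibsp were instead low in Osteoblast progenitors beside both Adipocyte progenitors and MSC. No test was made on MSC or Pre-adipocytes here.

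Shares of cells with a count were compared at equal depth. After thinning to 500 counts, Wif1 was found in 45.1% (95% Clopper-Pearson interval 36.8 to 53.6) and 55.4% (49.1 to 61.5) of Osteoblast progenitor cells, against 17.0% and 18.1% of Adipocyte progenitor cells, 11.8% and 11.3% of MSC, and 7.14% and 4.26% of Pro-osteoblasts. The level of Wif1 was 2355 and 2771 CPM in Osteoblast progenitors, as above, and 1666 and 1904 CPM in Pre-osteoblast/chondrocyte cells. Without thinning the Wif1 shares were 74.3% and 72.7% in Osteoblast progenitors and 38.8% and 34.2% in Adipocyte progenitors. Alpl was found in 30.6% and 28.1% of Osteoblast progenitor cells and 6.06% and 3.69% of Adipocyte progenitor cells, and Mmp13 in 43.8% and 51.9% against 22.4% and 17.4%; the Adipocyte progenitor shares are close to those of MSC. Sp7 was sparse, in 9.03% and 9.62% against 0.606% and 1.68%. Postn was in 4.86% and 4.62% of Osteoblast progenitor cells against 0 of 165 and 0 of 298 Adipocyte progenitor cells. For the latter the 95% Clopper-Pearson intervals reach 2.21% and 1.23% of cells with a count at this depth. That puts no limit on cells that express the gene, and without thinning 2 Adipocyte progenitor cells had a Postn count. Lepr was in 41.7% and 25.8% of Osteoblast progenitor cells and 49.1% and 56.4% of Adipocyte progenitor cells, so the intervals overlapped in Stroma1 (33.5 to 50.2 against 41.2 to 57.0) and not in Stroma2 (20.6 to 31.5 against 50.5 to 62.1). Cxcl12 was in 96.5% and 94.6% of Osteoblast progenitor cells and in 100% of Adipocyte progenitor cells in both samples; in Pro-osteoblasts, a bone-forming class, it was in 14.3% and 10.2%. Intervals and limits cover counting error only.

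**Figure D5:**
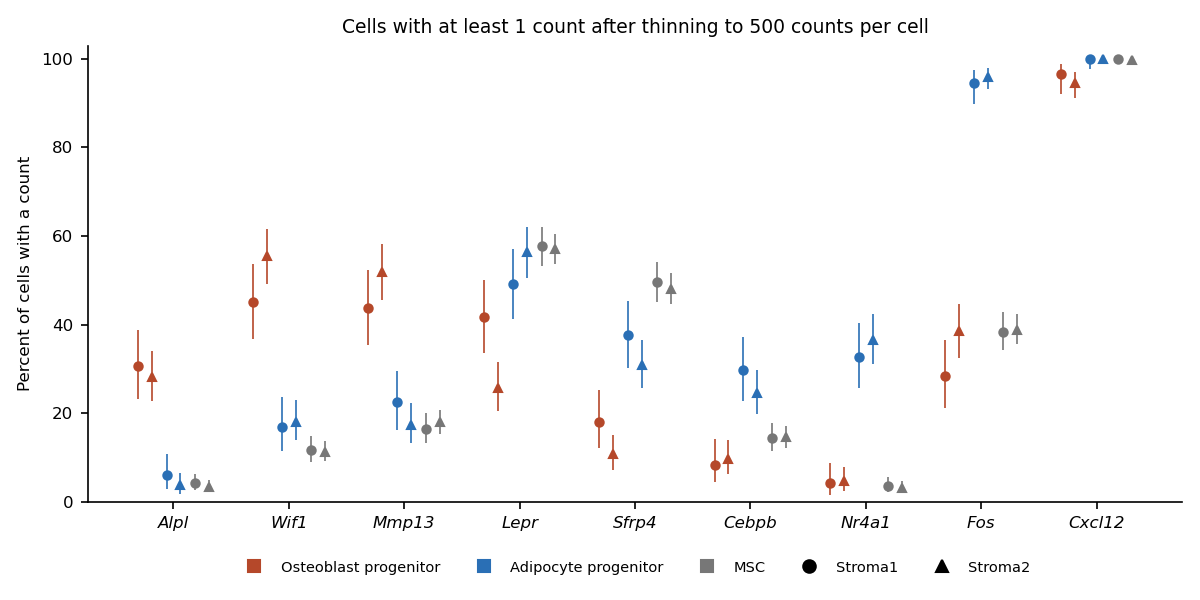
Percent of cells with at least 1 count of each gene after thinning every cell to 500 counts (y axis), for Osteoblast progenitors (red), Adipocyte progenitors (blue) and MSC (grey), circles for Stroma1 and triangles for Stroma2, with exact 95% intervals. Alpl, Wif1 and Mmp13 are found in more Osteoblast progenitor than Adipocyte progenitor cells, Wif1 in 45.1% and 55.4% against 17.0% and 18.1%, while Fos is found in 28.5% and 38.5% against 94.5% and 96.0%.

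The authors also deposited for each passing cell a probability of an adipocyte, osteoblast or chondrocyte fate and its place on a path to each. These values come from the same counts as the classes and are given as a description. The adipocyte probability had a median of 0.321 and 0.319 in Osteoblast progenitors, 0.3497 and 0.349 in Adipocyte progenitors and 0.326 in both samples of MSC. The osteoblast probability had medians of 0.338 and 0.338 against 0.324 and 0.324, with MSC at 0.338, the same to this precision as in Osteoblast progenitors. The chondrocyte probability had medians of 0.342 and 0.343 in Osteoblast progenitors, 0.326 and 0.327 in Adipocyte progenitors and 0.336 and 0.335 in MSC. On the osteoblast path lay 91.7% and 85.4% of Osteoblast progenitor cells, against 0.606% and 0.336% of Adipocyte progenitor cells, and on the adipocyte path 4.17% and 7.31% against 99.4% and 99.7%. The chondrocyte path held 100% and 98.5% of Osteoblast progenitor cells, against 6.06% and 4.70% of Adipocyte progenitor cells. The potential, a score with no unit stated, had medians of 0.128 and 0.106 in Osteoblast progenitors, 0.0963 and 0.0948 in Adipocyte progenitors and 0.179 and 0.178 in MSC.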

How the data were processed

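Counts are whole numbers per gene and barcode for 25289 genes, deposited by the authors; Bowtie 1.1.1 and GRCm38 are named in the submitters' processing notes, while their counting tool, annotation and use of molecular identifiers were not stated there. Fractions were deposited too, per the file headers (the mitochondrial share, 3 fate probabilities that sum to 1 in a cell, and pseudotimes as ranks from 0 to 1 on 3 paths), beside a potential score that the authors computed per cell. How the authors made the filter and the classes is not given in the sources used here.

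Counts of passing cells were summed per class and sample, 2 sums a side, since cells are not replicates. The test was edgeR's, version 4.0.16 in R 4.3.3, with TMM scaling, filterByExpr with a minimum count of 10, quasi-likelihood tests with terms for class and sample (1 residual degree of freedom a gene, common dispersion 0.0126), and Benjamini-Hochberg adjustment over 5729 genes, with an adjusted p under 0.05 called. SE is the absolute log2 fold change divided by the root of the F statistic. The test was run on simulated data first. CPM uses raw totals, without TMM. The fold change of a single sample adds a prior count of 0.5. Medians over a list and their counts stand in for a test of the list.

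Members and gene lists were chosen with earlier results of these data known. The rule named the 15 highest and 15 lowest called genes that moved alike in Stroma1 and Stroma2 and had at least 10 counts per sample in the higher class, the 4 most changed called members of each of 25 lists, and 30 genes whatever their result; other members were named after their values were seen. Some genes that the rule or the lists hold are not reported here. Coordinates are from the GENCODE annotation of GRCm38, which gave none for Wisp1. Doublets were not called. Alternatives were RLE scaling, other filters, a fit over 6 classes, no sample block, sums per library, each barcode once, thinned cells, cells without blood markers, DESeq2 1.42.0, and rebuilt classes: each cell's counts were divided at random, 1 part clustered with Leiden in scanpy 1.11.5 (2000 variable genes, 30 components, 15 neighbours, resolution 1.0), and the other part tested. Same-numbered sums come from the same sample, so the block pairs them by design.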

Additional observations from a re-analysis of the deposited data

How the results depend on the processing

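Of the 176 higher and 373 lower genes, RLE scaling gave 174 and 373, no filter on low counts 141 and 327, a minimum count of 30 200 and 340, a fit over 6 classes 150 and 320, sums per library 215 and 324, each barcode once 175 and 359, and leaving out cells with blood markers 186 and 369. Without the replicate block, which pairs the classes of a sample, 169 were higher and 363 lower, and no call of a named gene changed. The counts moved by more than 1.5 times with cells thinned to 500 counts (52 higher, 149 lower), with DESeq2 (45 higher, 147 lower), and, for higher genes, with the rebuilt classes (343 higher, 469 lower). Thinning leaves fewer counts to test; the cause for DESeq2 was not tested. The rebuilt classes differ in their cells: the cluster named for osteoblast progenitors held 237 cells, 128 of them among the 404 Osteoblast progenitors and 79 of them Pre-osteoblast/chondrocyte cells. Of the 404, 259 fell into clusters named for MSC, and the cluster named for adipocyte progenitors held 654, 372 of them among the 463 Adipocyte progenitors and 205 of them Pre-adipocytes. With the rebuilt classes Pparg (-4.06), Cebpa (-1.24) and Bmp2 (2.16) reversed, and the part of the changed cells in this was not tested. DESeq2 lost 28 calls among the 107 named genes it gave a value for, thinned cells 17 among 85, and the rebuilt classes 9 among 109; of all 112, 6 each were lost with the fit over 6 classes and without a filter. With 1 sample left out no residual degrees of freedom remain, so such fits gave values and no counts; of the named genes, Pparg (-0.30) and Cebpa (-0.17) without replicate 1 and Foxc1 (0.10) without replicate 2 had another sign, none of them called. The log2 fold change moved by more than the SD of the 2 samples for 4 named genes without replicate 1 and 15 without replicate 2. The depth of 238611 to 475368 counts per sum leaves genes below the filter untested.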
